A study of Mus musculus with 6 samples.

Results

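The genes described here encode the enzymes and small redox proteins that deal with superoxide, peroxides, glutathione and thioredoxin. They were chosen by symbol alone. Taken were the superoxide dismutases Sod1 to Sod3, catalase (Cat), the Gpx glutathione peroxidases, Gclc, Gclm, Gss and Gsr. With them came the Gst and the microsomal (Mgst) glutathione transferases and the Prdx peroxiredoxins. The rest were every symbol starting with Txn or Glrx, Nqo1, Nqo2, Hmox1 and Hmox2. The rule found 126 probesets of 68 genes, out of 18193 genes with a probeset of their own on the array, and each gene is represented by its brightest probeset, the one with the highest mean signal over all arrays. A filter that left out the 31% of probesets with the lowest mean signal kept 59 of the 68 genes, and 13863 of all genes. The 59 genes are called the redox genes below. The 9 genes that did not pass are Gpx5, Gpx6, Gsta2, Gsto2, Gstp3, Gstt4, Hmox1, Mgst2 and Txndc2, whose signals on single arrays ran from 4.2 to 110.9.

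The study asked how the hippocampus responds to a moderate, lifelong excess of glutamate release. It compared 3 Glud1 transgenic (Tg) mice, which carry extra copies of the gene for glutamate dehydrogenase 1 under the neuron-specific enolase (Nse) promoter, so that only neurons overexpress it, with 3 wild-type (wt) mice. All 6 were untreated males of the C57BL/6 background, 9 months old. Total RNA of the homogenized hippocampus of each mouse was hybridized to 1 Affymetrix Mouse Genome array, and the deposited intensities are MAS5 signals on a linear scale.

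Superoxide dismutases turn superoxide, a by-product of mitochondrial respiration, into hydrogen peroxide, which catalase, glutathione peroxidases and peroxiredoxins then remove. Glutathione peroxidases draw their electrons from glutathione and most peroxiredoxins draw theirs from thioredoxin, and both carriers are reduced again at the expense of NADPH. In the brain glutathione is made in both neurons and astrocytes, astrocytes holding the larger store, and many of the genes are switched on by the transcription factor NRF2 through antioxidant response elements in their promoters.

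Several measures of the whole arrays moved with the groups. Glud1 had signals of 5116, 5596 and 5561 on the Tg arrays, against 6383, 5647 and 5998 on the wt arrays, at its brightest probeset, which may not read the transgene's messenger and so checks no label. The median signal of the probesets that passed the filter was 315.1 ± 4.80 on the Tg arrays and 300.2 ± 4.49 on the wt arrays, and the Actb controls at both ends of that messenger, which report RNA degradation, had a 3'/5' ratio of 1.66 ± 0.0271 for Tg mice and 1.84 ± 0.125 for wt mice (SD, n = 3 each; exact permutation test, two-sided, p = 0.1 for both, the smallest that 3 against 3 allow). The same ratio for Gapdh was 0.787 ± 0.0105 for Tg mice and 0.824 ± 0.0786 for wt mice (SD, n = 3 each; exact permutation test, two-sided, p = 0.6). Of the marker lists, all 8 genes of dentate granule cells and 6 of 7 of CA pyramidal cells had a positive difference. Of all genes, 55.8% had a negative one. Negative were 6 of 7 genes of retrohippocampal cortex, 7 of 8 of endothelial and mural cells, 6 of 8 of meningeal fibroblasts and 7 of 7 of choroid plexus. So were 5 of 7 genes of oligodendrocytes, 5 of 8 of neurons and 2 of 3 of blood cells. The difference was negative in 7 of 8 genes of astrocytes. Their summed signal was 75074.5 to 79831.6 on the Tg arrays and 81305.4 to 84879.9 on the wt arrays. In 5 of 8 genes of microglia, a share near that of all genes, the difference was negative too, with sums of 15017.5 to 15660.9 on the Tg arrays and 16028.5 to 17427.2 on the wt arrays. The sum over all 13863 genes passing the filter was also lower on every Tg array than on any wt array, so lower sums are not particular to these lists. Tg 3 had a Ttr signal (transthyretin, the main product of the choroid plexus) of 3915, against 40080 on Tg 1, 57638 on Tg 2 and 44776 to 50822 on the wt arrays. In dissected tissue, fewer cells of a type and less RNA per cell cannot be told apart, and what part these shifts have in the values below was not tested.

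None of the 59 redox genes was called different between Tg and wt mice at an adjusted p under 0.05, and most differences were small. The lowest adjusted p among them was 0.42 (limma, Benjamini-Hochberg adjusted over all 31075 probesets kept), and the background was the same, with 0% of the 13863 genes called. Cyber-T, the other test, called 66 probesets in all and none of the redox genes. At an unadjusted p under 0.05 in the limma fit, 2 redox genes had higher signals in Tg mice, Gsr and Gstm6, which is 3.39% of the 59 beside 2.92% of all genes. In 4, Gstm5, Gpx4, Txndc15 and Gpx3, the signals were lower in Tg mice, which is 6.78% beside 5% of all genes. Both shares are near the background. With 3 mice in each group, the p-values set each difference against the spread within groups, with error estimates moderated over all probesets kept. Only these 6 animals stand behind them.

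By direction alone, 38 of the 59 redox genes (64.4%) had a lower mean log2 signal in Tg than in wt mice, beside 55.8% of all genes, and 21 (35.6%) a higher one, beside 44.2% of all genes. Their median log2 fold change, Tg minus wt, was -0.11, and that of all 13863 genes was -0.031. The background turned when the probesets of a gene were averaged, with 48.5% of all genes lower and a median of 0.0073, while 37 of the 59 redox genes were lower. Over all probesets kept, 14518 were lower and 16557 higher. All 3 Tg arrays lay below all 3 wt arrays for 7 redox genes, namely Gstp1, Gstm5, Gpx4, Txnl1, Txndc15, Txnl4a and Nqo1 (11.9%, beside 8.83% of all genes), and above them for 2, Glrx2 and Gsr (3.39%, beside 5.2%). A 1.3-fold difference with an unadjusted limma p of at most 0.05 was met upwards by Gstm6 alone (1.69%, beside 1.96% of all genes) and downwards by Gpx3 alone (1.69%, beside 2.46%). At 59 genes, the shares of separated groups and of 1.3-fold differences are within a few genes of the background. The counts by direction lay further from it, most of all with the probesets averaged (37 of 59, beside 48.5% of all genes). At the brightest probesets, 10 of the 38 lower genes were among the 11 thioredoxin-domain and thioredoxin-like genes, of which 1 was higher. Catalase and the glutathione peroxidases had 4 higher and 3 lower, and glutathione synthesis and reduction 3 higher and 1 lower. The counts by direction were not tested as a set. The counts of lower genes rest on how the arrays are scaled. With each array centred on its median, 41 of 59 redox genes and 67.9% of all genes were lower in Tg mice. The median of each of the 10 role groups kept its sign with that centring and with quantile normalization, but with centring that of catalase and the glutathione peroxidases shrank from 0.070 to 0.0038 and that of glutathione synthesis and reduction from 0.13 to 0.059.

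**Figure D1:**
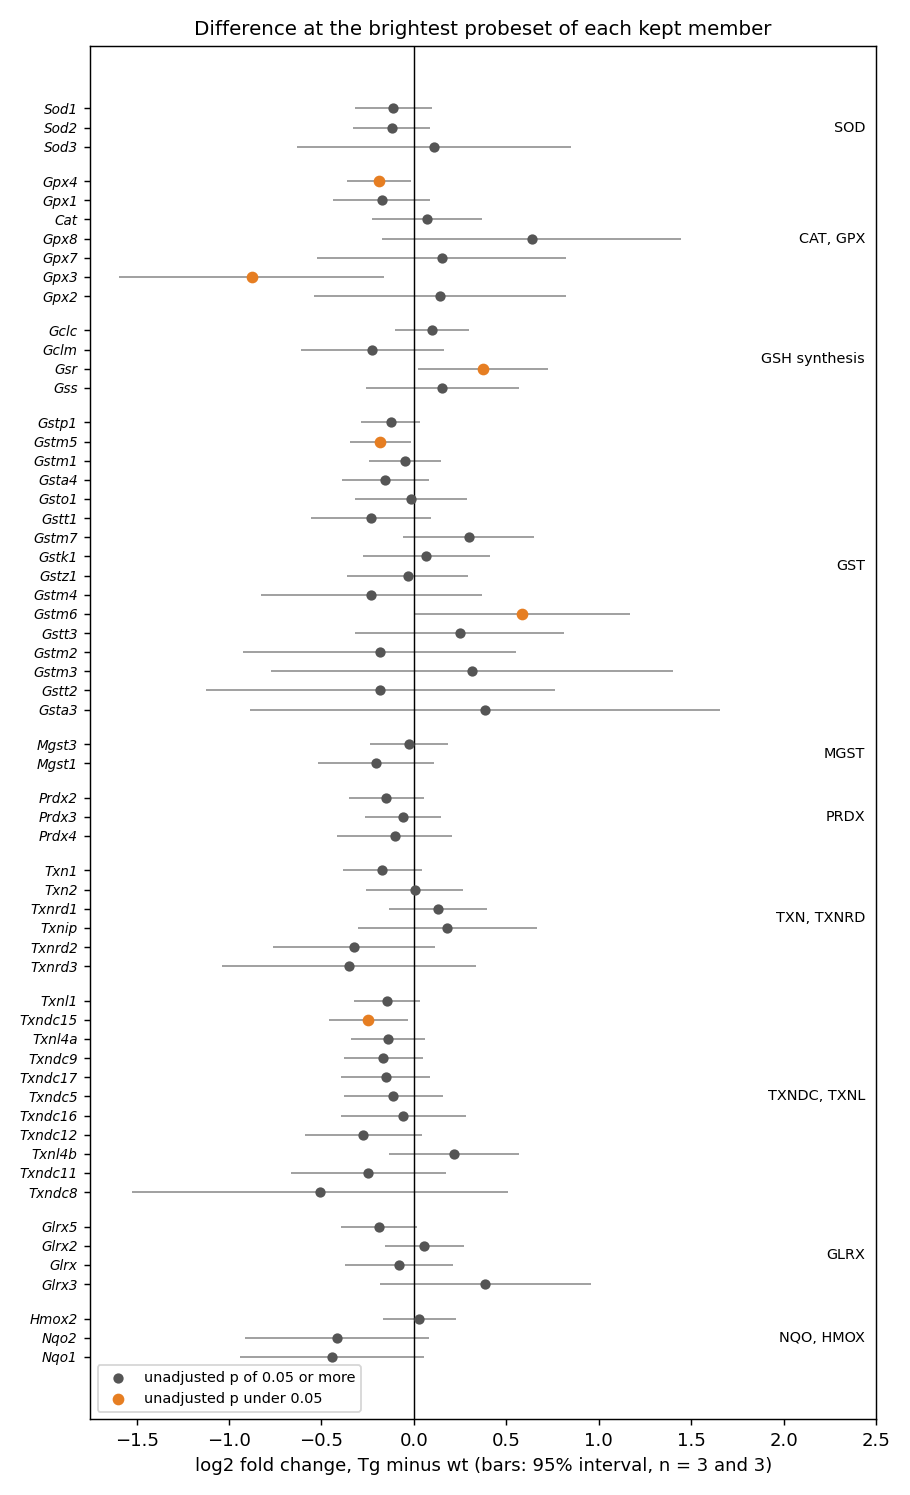
Log2 fold change (Tg minus wt, horizontal axis, no unit) of the 59 redox genes that passed the filter, grouped by role from top to bottom and, within a role, from the highest to the lowest mean signal; points are differences of group means and bars are 95% intervals from the limma fit (n = 3 Tg and 3 wt arrays). Orange points mark the 6 genes with an unadjusted p under 0.05, all others have intervals that cross 0, and the intervals widen towards the dim genes of each role.

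The spread between arrays set what could be seen. For the 20 redox genes with a mean signal under 316, the median within-group SD on the log2 scale was 0.43, and for the 8 genes above 3162 it was 0.096. All 8 of those bright genes were lower in Tg mice (median log2 fold change -0.15), where 67.7% of the 1314 genes of that range were (median -0.057). In the range from 1000 to 3162, 13 of 19 redox genes were lower (median -0.11), beside 60.3% of 3131 genes (median -0.037). Below 316 the redox genes divided evenly, with 10 of 20 lower and a median of -0.038, beside 51.4% of 5153 genes. At its brightest probeset, none of the 27 redox genes with a mean signal of at least 1000 differed by 1.3-fold, and the largest difference there was 1.19-fold. Second probesets of Gpx4, Cat and Gclc with mean signals above 1000 had larger differences, given below. So did further probesets of Txn2 (log2 fold change -0.29) and Prdx2 (-0.26) with mean signals above 1000.

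**Figure D2:**
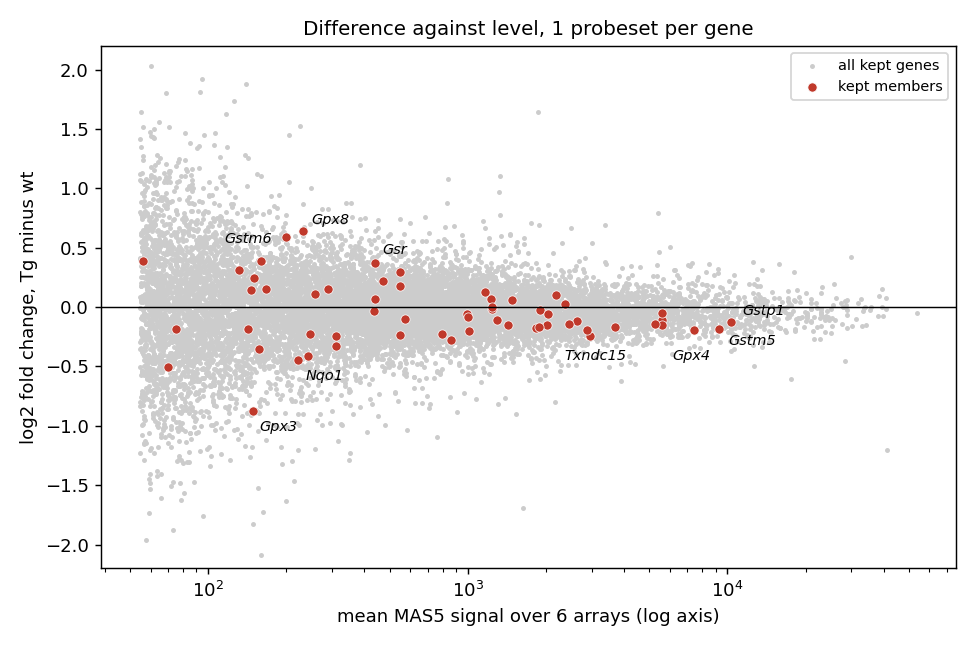
Log2 fold change (Tg minus wt, vertical axis) against the mean MAS5 signal over the 6 arrays (horizontal log axis), 1 probeset per gene; grey points are all 13863 genes kept, red points the 59 redox genes, and 2 genes lie outside the vertical axis. The red points spread both ways on the left and close in towards 0 on the right, where all 8 with a signal above 3162 lie below the line.

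The arrays did not contribute evenly. Among the 27 bright redox genes, the median deviation from the mean of the 6 arrays was -0.038, -0.0098 and -0.13 on Tg 1, Tg 2 and Tg 3, against 0.019, 0.095 and 0.033 on wt 1, wt 2 and wt 3 (log2 scale). Tg 3 held the lowest value of the 6 for 20 of the 59 redox genes, and wt 2 the highest for 20. Without Tg 3 the median difference of the 59 genes was -0.060, and without wt 2 it was -0.059, against -0.11 with all arrays. In the 6 fits that each left out 1 array, 29 redox genes stayed lower in Tg mice throughout and 12 stayed higher, and none had an unadjusted p under 0.05 in all 6. The shares over all genes are not given for the counts in this paragraph, so whether they are particular to the redox genes was not tested.

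**Figure D3:**
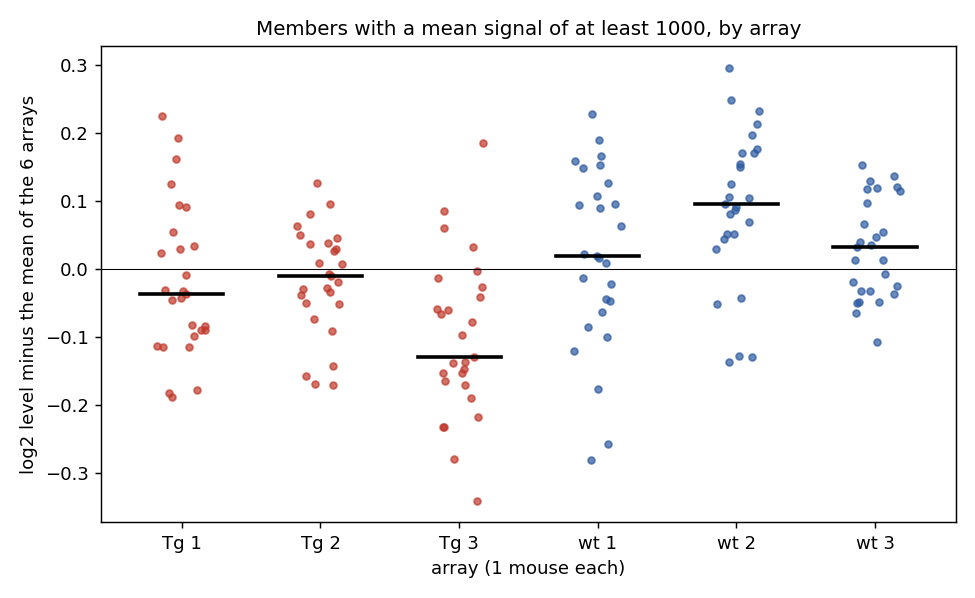
Deviation of each of the 27 redox genes with a mean signal of at least 1000 from its own mean over the 6 arrays (vertical axis, log2 scale), by array; points are genes and black lines medians. The medians run from -0.13 on Tg 3 to 0.095 on wt 2, and the clouds of points overlap between all arrays.

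Of 60 genes of the full set with a promoter window in the RefSeq annotation, 10 (16.7%) held the core of the antioxidant response element, TGACNNNGC on either strand, in the 300 bases from 250 before to 50 after a transcription start. Of all 27025 genes with a window, 14% held it, and the element begins with the same letters as the AP-1 site TGACTCA. The 10 are Gclm, Gsta3, Gstm5, Gstm7, Mgst1, Sod1, Txndc11, Txndc2, Txndc5 and Txnrd1. The 4 windows below (GRCm38.p6, in the direction of transcription, the core in capitals) are shown because 2 belong to well-known NRF2 targets, Gclm and Txnrd1, and 2 to neighbouring mu-class transferases whose brightest probesets were picked for their opposite signs, Gstm5 and Gstm7. The cores start 134 bases before the transcription start of Gclm (chr3:122245388-122245466, plus strand), 92 before that of Txnrd1 (chr10:82859079-82859157, plus strand, 1 of 3 annotated starts), 42 before that of Gstm5 (chr3:107895777-107895855, plus strand) and 129 before that of Gstm7 (chr3:107931700-107931778, minus strand, 1 of 2 starts). In Gclm and Txnrd1 the core is on the opposite strand, so the capitals read as its reverse complement.
Gclm: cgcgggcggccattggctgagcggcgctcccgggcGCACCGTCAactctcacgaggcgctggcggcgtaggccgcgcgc
Txnrd1: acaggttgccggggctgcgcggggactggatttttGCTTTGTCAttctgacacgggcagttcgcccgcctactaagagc
Gstm5: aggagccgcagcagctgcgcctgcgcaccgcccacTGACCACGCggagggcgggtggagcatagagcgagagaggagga
Gstm7: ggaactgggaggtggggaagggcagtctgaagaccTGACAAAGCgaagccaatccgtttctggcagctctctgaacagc
These letters are a description of the windows and not evidence of a bound site. The log2 fold changes of the 4 genes were -0.22 for Gclm (95% interval -0.61 to 0.16), 0.13 for Txnrd1 (-0.13 to 0.39), -0.18 for Gstm5 (-0.35 to -0.017) and 0.30 for Gstm7 (-0.057 to 0.65). Gstm7 has a second kept probeset with the opposite sign (-0.19). Of the 9 redox genes with a core that passed the filter, 6 were lower and 3 higher in Tg mice.

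The 3 superoxide dismutases differed little between the groups. Sod1, the copper-zinc enzyme of the cytosol, had signals of 5657, 5663 and 4783 on the Tg arrays, against 5240, 6068 and 6086 on the wt arrays. The groups overlapped, with Tg 3 lowest, and the log2 fold change was -0.11 (95% interval -0.32 to 0.096, limma adjusted p = 0.73). Sod2, the manganese enzyme of the mitochondrial matrix, had 2307, 2738 and 2514 on the Tg arrays and 2825, 2774 and 2607 on the wt arrays, a log2 fold change of -0.12 (-0.33 to 0.087, limma adjusted p = 0.72). Both have further probesets, not all of the same sign, and the log2 fold change of their averaged probesets was 0.10 for Sod1 and 0.043 for Sod2. Sod3, the secreted enzyme, was uneven within the Tg group, with 133.8, 448.1 and 261.4 on the Tg arrays, against 250.2, 186.1 and 270.9 on the wt arrays. Its highest signal was on Tg 2, the array with the highest Ttr signal. Its lowest was on Tg 1, while Tg 3, the array with the lowest Ttr signal, had 261.4. Whether Sod3 follows Ttr was not tested.

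Among the peroxidases, Gpx4 and Gpx3 had lower signals in Tg mice. Gpx4 reduces lipid hydroperoxides within membranes and is the enzyme that guards cells from ferroptosis. Its signals were 6573, 7388 and 6951 on the Tg arrays, against 7949, 8408 and 7505 on the wt arrays. Every Tg array lay below every wt array, the log2 fold change was -0.19 ± 0.080 (SE), and the limma p was 0.034 unadjusted and 0.47 adjusted. A second probeset of Gpx4 read 6438, 5041 and 6474 on the Tg arrays and 9716, 7354 and 8221 on the wt arrays. There too the groups did not overlap, and the difference was larger (log2 fold change -0.49 ± 0.12 SE, limma adjusted p = 0.22, 0.0013 before adjustment). Of all redox genes with a further kept probeset, Gpx4 is one of 14 whose probesets all had the sign of the brightest.

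Gpx3, the glutathione peroxidase secreted into plasma, had the largest difference of the set. Its signals were 69.1, 86.4 and 147.4 on the Tg arrays, against 217.4, 134.7 and 234.6 on the wt arrays. The groups overlapped by 1 array on each side, Tg 3 and wt 2, and the log2 fold change was -0.88 ± 0.33 (SE; limma adjusted p = 0.42, 0.021 before adjustment). At these low signals the constant of 16 added before the logarithm shrinks the difference, and the single probeset of Gpx3 allows no second reading. The p stayed under 0.05 in 2 of the 6 fits that left out 1 array, without Tg 3 and without wt 2.

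Gpx8, a peroxidase of the endoplasmic reticulum, had the largest positive difference (log2 fold change 0.64, 95% interval -0.17 to 1.45), and it was 0.16 without Tg 2. The signals were 159.6, 517.3 and 209.5 on the Tg arrays and 111.7, 183.2 and 204.5 on the wt arrays. Tg 2 alone stood clear of the rest, as it did for Sod3. Gpx1, the main cytosolic peroxidase, averaged 1727 ± 222 in Tg mice and 1948 ± 207 in wt mice (SD, n = 3 each), a log2 fold change of -0.17 (-0.44 to 0.088). Catalase gave opposite answers at its 2 probesets. The brighter averaged 1259 ± 173 in Tg mice and 1198 ± 157 in wt mice (SD, n = 3 each; log2 fold change 0.070). The other read 1076, 902.7 and 664 on the Tg arrays against 1108, 1449 and 1149 on the wt arrays, a log2 fold change of -0.50 ± 0.17 (SE; limma adjusted p = 0.37, 0.013 before adjustment).

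**Figure D4:**
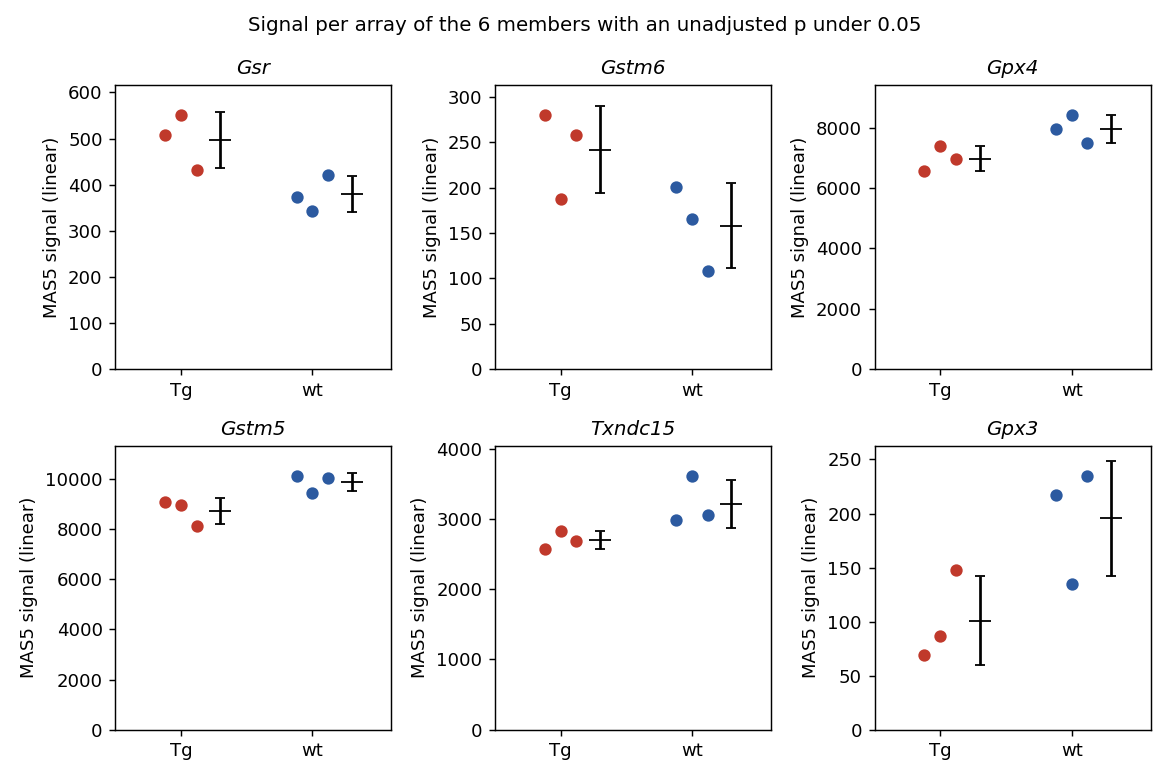
MAS5 signal (linear scale from 0, vertical axis) of the 6 redox genes with an unadjusted p under 0.05, by group; coloured points are single arrays in the order of replicates 1 to 3, and the black mark beside them is the mean with 1 SD (n = 3). Gsr and Gstm6 are higher in Tg mice and the other 4 lower, and only in Gsr, Gpx4, Gstm5 and Txndc15 do the points of the groups not overlap.

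The genes that make and recycle glutathione lay mostly on the higher side, with 3 of 4 positive and a median log2 fold change of 0.13, or 0.059 with median centring. Gsr, glutathione reductase, returns oxidised glutathione to its reduced form with electrons from NADPH. Its signals were 508.6, 550.3 and 431.6 on the Tg arrays, against 372.4, 343.4 and 420.7 on the wt arrays. Every Tg array lay above every wt array, although Tg 3 exceeded wt 3 only slightly, and the log2 fold change was 0.38 ± 0.16 (SE; limma adjusted p = 0.48, 0.039 before adjustment). Its second probeset gave the same picture with 382.6, 460.7 and 362.2 on the Tg arrays and 340.1, 313.9 and 172.9 on the wt arrays, a log2 fold change of 0.57 ± 0.24 (SE; limma adjusted p = 0.48, 0.036 before adjustment). Gsr was the only redox gene with an unadjusted p under 0.05 in the higher direction at both of its probesets. The p did not survive centring each array on its median or quantile normalization.

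Glutamate-cysteine ligase, which catalyses the rate-limiting step of glutathione synthesis, has a catalytic subunit, Gclc, and a modifier subunit, Gclm. Gclc read 2337, 2177 and 2281 on the Tg arrays and 2223, 1990 and 2139 on the wt arrays (log2 fold change 0.098, 95% interval -0.10 to 0.30). Its second probeset lay on the other side, at 1264, 1121 and 1140 on the Tg arrays against 1426, 1753 and 1235 on the wt arrays (log2 fold change -0.31 ± 0.13 SE, limma adjusted p = 0.48, 0.039 before adjustment), so the direction of Gclc depends on the probeset. Gclm averaged 731.5 ± 122 in Tg mice and 863.0 ± 189 in wt mice (SD, n = 3 each). Its difference was -0.22 on the log2 scale, and the groups overlapped. Gss, glutathione synthetase, averaged 306.5 ± 48.6 in Tg mice and 272.4 ± 24.7 in wt mice (SD, n = 3 each), with a log2 fold change of 0.15 (-0.26 to 0.57) and the opposite sign at its other probeset.

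The Gst glutathione transferases, which attach glutathione to electrophiles, were the largest group, with 16 genes kept. In 10 the difference was negative and in 6 positive, and the median was -0.041. Their summed signal was 28502 to 31143.8 on the Tg arrays and 32146.2 to 33040.4 on the wt arrays. The sum over all 13863 genes was separated in the same direction (18494300 to 18868700 on the Tg arrays, 19029200 to 19559500 on the wt arrays), and the sum of the transferases is dominated by its 2 brightest probesets, those of Gstp1 and Gstm5. Gstp1, the pi-class enzyme, had signals of 10008, 10370 and 9275 on the Tg arrays, against 10976, 10955 and 10406 on the wt arrays. The groups did not overlap, though Tg 2 came close to wt 3, and the log2 fold change was -0.13 (95% interval -0.29 to 0.034, limma adjusted p = 0.61). Gstm5, a mu-class enzyme, had 9062, 8947 and 8116 on the Tg arrays, against 10110, 9455 and 10046 on the wt arrays. Here the gap was wider, with a log2 fold change of -0.18 ± 0.076 (SE; limma adjusted p = 0.46, 0.033 before adjustment), and the p stayed under 0.05 in 3 of the 6 fits that left out 1 array.

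Gstm6, another mu-class gene, went the other way. Its signals were 279.8, 187.7 and 257.7 on the Tg arrays, against 200.8, 164.9 and 108.1 on the wt arrays. Tg 2 lay below wt 1, so the groups overlapped, and the log2 fold change was 0.59 ± 0.27 (SE; limma adjusted p = 0.51, 0.049 before adjustment). The study lists this probeset, the only one of the gene, among those it found altered on these mice, so the value is not independent evidence of its direction. The mu-class genes have closely similar sequences, and how far their probesets cross-react was not tested. The 2 most uneven transferases were Gstm3, with 180.3, 154.2 and 79.5 on the Tg arrays against 218.0, 122.3 and 35.3 on the wt arrays, and Gsta3, with 26.8, 58.3 and 117.2 against 21.5, 40.9 and 73.1. Each varied more than 2-fold within both groups, and their log2 fold changes of 0.31 and 0.39 lay within that spread.

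The microsomal transferases and the peroxiredoxins lay on the lower side by small amounts. Mgst3 averaged 1887 ± 119 in Tg mice and 1920 ± 90.6 in wt mice, and Mgst1 averaged 939.8 ± 183 in Tg mice and 1075 ± 89.1 in wt mice (SD, n = 3 each). Their log2 fold changes were -0.025 (95% interval -0.24 to 0.19) and -0.20 (-0.52 to 0.11). Prdx2, the cytosolic peroxiredoxin abundant in neurons, had signals of 5435, 5760 and 4749 on the Tg arrays and 5412, 6279 and 5966 on the wt arrays, a log2 fold change of -0.15 (-0.35 to 0.056). Prdx3, its mitochondrial relative, had -0.058 (-0.26 to 0.15), with 1906, 2097 and 2006 on the Tg arrays and 2066, 2196 and 1997 on the wt arrays. Prdx4, the peroxiredoxin of the endoplasmic reticulum, is the other redox gene in the study's list of altered probesets. At the listed probeset, which is also its brightest, it had 508.2, 618.5 and 530.2 on the Tg arrays and 541.3, 630.4 and 608.1 on the wt arrays. The groups overlapped and the log2 fold change was -0.10 ± 0.14 (SE; limma adjusted p = 0.85). The listed probeset thus did not reach here the 1.3-fold difference that the study required after its own processing. The 5 probesets of Prdx1 also match the gene Gm21399 and were outside the rule. Their log2 fold changes ran from -0.11 to 0.098.

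Thioredoxin and its reductases divided evenly, with 3 of 6 genes on either side and a median of -0.083. Txn1, the cytosolic thioredoxin, had signals of 3452, 3577 and 3328 on the Tg arrays, against 4107, 4199 and 3397 on the wt arrays. The difference rests on wt 1 and wt 2, since wt 3 lay within the Tg values, and the log2 fold change was -0.17 (95% interval -0.38 to 0.042, limma adjusted p = 0.60). Txn2, the mitochondrial form, averaged 1238 ± 118 in Tg mice and 1235 ± 123 in wt mice (SD, n = 3 each), a log2 fold change of 0.0044 (-0.26 to 0.27). Txnrd1, the cytosolic reductase, averaged 1223 ± 133 in Tg mice and 1113 ± 86.0 in wt mice (SD, n = 3 each), and its difference of 0.13 had the same sign at its other kept probeset (0.33). Txnip, which binds thioredoxin and blocks it, averaged 573.8 ± 83.7 in Tg mice and 521.5 ± 176 in wt mice (SD, n = 3 each). Its difference of 0.18 (-0.30 to 0.66) was smaller than the spread of the wt arrays.

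The genes of thioredoxin-domain and thioredoxin-like proteins, grouped by symbol, lay mostly on the lower side. Of 11 genes kept, 10 were lower in Tg mice and 1, Txnl4b, higher, with a median log2 fold change of -0.15, beside 55.8% of all genes lower and a median of -0.031. Their summed signal was 16843.9 to 17107.3 on the Tg arrays and 18592.7 to 19523.2 on the wt arrays, separated in the direction in which the sum over all genes was. In 3 of the 11 every Tg array lay below every wt array, a share above the 8.83% of all genes, though on only 11 genes. Txndc15 encodes a transmembrane protein with a thioredoxin domain. It had 2578, 2838 and 2687 on the Tg arrays, against 2981, 3613 and 3054 on the wt arrays. The log2 fold change was -0.25 ± 0.098 (SE; limma adjusted p = 0.45, 0.028 before adjustment), and its dim second probeset had -0.28 with a 95% interval of -1.48 to 0.91.

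Txnl1, a thioredoxin-like protein that associates with the proteasome, had 4961, 4666 and 5371 on the Tg arrays, against 5606, 5595 and 5379 on the wt arrays. Tg 3 lay just below wt 3, and the log2 fold change was -0.15 (95% interval -0.32 to 0.031). The next brightest probeset of Txnl1 showed no difference, at 0.00046 on the log2 scale. Txnl4a, a spliceosome component, had 2267, 2389 and 2353 on the Tg arrays against 2728, 2622 and 2390 on the wt arrays. Its groups were separated only by 2389 on Tg 2 and 2390 on wt 3, and the log2 fold change was -0.14 (-0.34 to 0.059). The other kept probeset of Txnl4a had the opposite sign (0.070). Txndc8, a thioredoxin of the testis in mouse, had the second most negative difference of the set (-0.51) on signals of 23.6, 85.2 and 65.1 on the Tg arrays and 96.3, 78.0 and 72.3 on the wt arrays. Those signals are near the filter, and the 95% interval runs from -1.52 to 0.51.

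Among the glutaredoxins, which reduce disulphides with glutathione or carry iron-sulphur clusters, 2 of 4 genes lay on each side. Glrx5, needed for iron-sulphur cluster assembly in mitochondria, had signals of 2685, 2800 and 2548 on the Tg arrays, against 3263, 2774 and 3143 on the wt arrays. Only wt 2 fell among the Tg values, and the log2 fold change was -0.19 (95% interval -0.39 to 0.016, limma adjusted p = 0.55). Glrx2, a mitochondrial glutaredoxin, had 1475, 1587 and 1481 on the Tg arrays and 1470, 1431 and 1464 on the wt arrays. Although no Tg array fell below a wt array, the gap between Tg 1 and wt 1 was small and the log2 fold change was only 0.056 (-0.16 to 0.27), turning to -0.010 with median centring. Glrx3 had a larger difference of 0.39 (-0.19 to 0.96), on 209.1, 140.4 and 200.9 on the Tg arrays and 141.7, 151.9 and 112.9 on the wt arrays. It is represented by a dim probeset because 4 others also match Gm12669. The brightest of those 4 had a log2 fold change of -0.061 and the next brightest 0.16.

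The quinone reductases and haem oxygenases include Nqo1 and Hmox1, classical targets of NRF2. Hmox1, the inducible haem oxygenase, did not pass the filter, with 56.1, 31 and 80 on the Tg arrays and 18.7, 100.9 and 12.7 on the wt arrays. Nqo1 had 196.6, 227.0 and 139.6 on the Tg arrays, against 236.5, 280.5 and 254.0 on the wt arrays. Every Tg array lay below every wt array, and the log2 fold change was -0.44 ± 0.23 (SE; limma adjusted p = 0.56, 0.076 before adjustment). Nqo2 had 281.0, 164.8 and 181.3 on the Tg arrays and 278.9, 292.8 and 259.8 on the wt arrays, where Tg 1 lay within the wt values, and a log2 fold change of -0.42 (95% interval -0.91 to 0.083). Its other kept probesets gave -0.26 and 0.53. Hmox2, the constitutive haem oxygenase of the brain, averaged 2386 ± 122 in Tg mice and 2336 ± 94.9 in wt mice (SD, n = 3 each), and its difference was 0.030 (-0.17 to 0.23).

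For 30 of the 59 redox genes at least 1 other probeset of the same gene passed the filter, 49 in all. Of these 49, 26 had the sign of the brightest probeset of their gene, and in 14 of the 30 genes all of them did. In each of the others at least 1 further probeset had the opposite sign to the brightest, among them Sod1, Txnl1, Txnrd2, Txnrd3 and Nqo2. A probeset reads a stretch of messenger near 1 of its 3' ends, so probesets of a gene can follow different transcripts, and which of them do so was not tested.

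**Figure D5:**
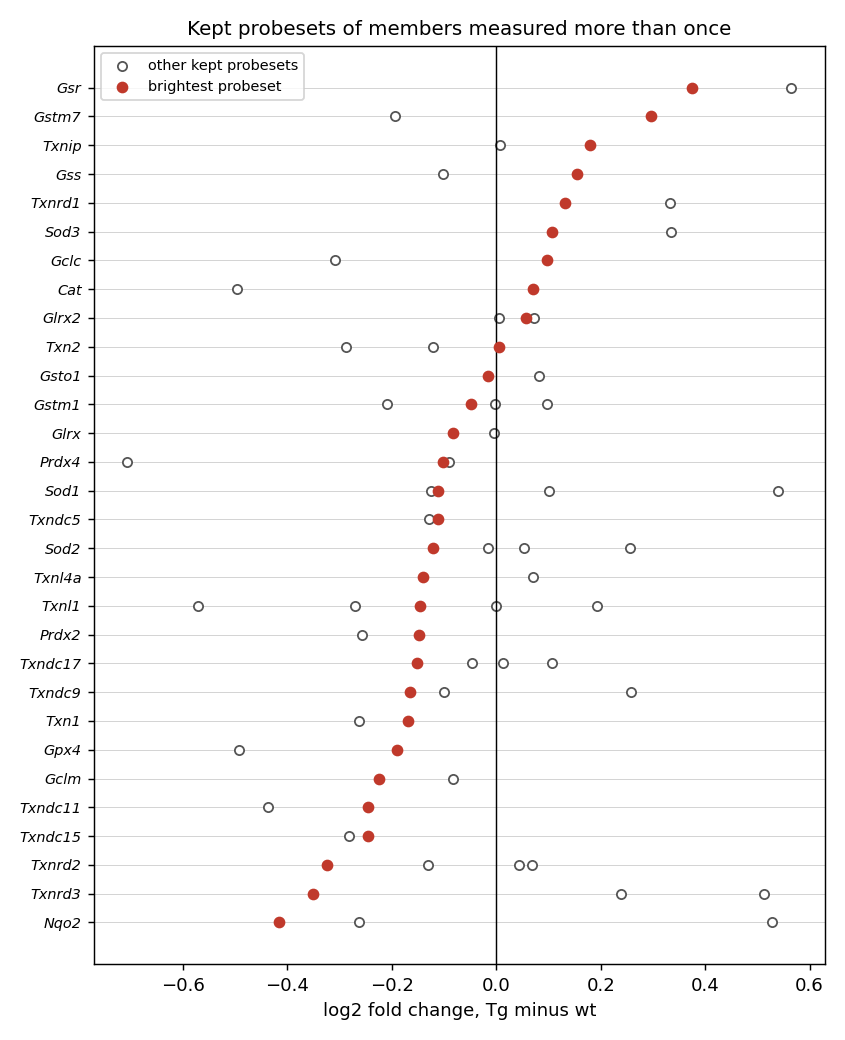
Log2 fold change (Tg minus wt, horizontal axis) at every kept probeset of the 30 redox genes with more than 1, 1 gene per line, ordered by the brightest probeset (red); open circles are the other 49 probesets. In Gsr, Gpx4 and Txndc15 all points lie on 1 side of 0, while in Cat and Gclc the points lie on opposite sides.

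The genes that surround these enzymes were taken from 5 lists in the same fit, and none of their genes was called at an adjusted p under 0.05. For their counts the background over all genes is 55.8% lower, 2.92% higher with an unadjusted p under 0.05 and 5% lower with one. Of 12 NRF2 regulators kept, 7 lay higher and 5 lower in Tg mice (median 0.054), and none had an unadjusted p under 0.05. Sqstm1, the adaptor that sequesters the NRF2 inhibitor Keap1, averaged 8215 ± 247 in Tg mice and 7754 ± 257 in wt mice, and Park7, a redox-sensing protein of Parkinson's disease, averaged 5388 ± 102 in Tg mice and 5730 ± 195 in wt mice (SD, n = 3 each). Of 16 other NRF2 targets, 8 lay on each side (median -0.010), 1 with an unadjusted p under 0.05 upwards, the exporter Abcc4 (log2 fold change 0.43), and 2 downwards, Blvrb and the sulphiredoxin Srxn1 (-0.27), which repairs overoxidised peroxiredoxins. The most extreme was Blvrb, biliverdin reductase B, with 12.5, 133.9 and 96.2 on the Tg arrays against 275.7, 262.7 and 196.0 on the wt arrays. No array overlapped, the log2 fold change was -1.72 ± 0.51 (SE; limma adjusted p = 0.29, 0.0053 before adjustment), and Tg 1 was close to no signal. The bright members of that list moved less, with log2 fold changes of 0.077 for Fth1, the ferritin heavy chain, and -0.047 for the metallothionein Mt1.

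Of 16 genes that supply NADPH, 11 lay lower and 5 higher (median -0.059), with 1 unadjusted p under 0.05, that of the cytosolic isocitrate dehydrogenase Idh1 (log2 fold change -0.41). The transketolase Tkt and the transaldolase Taldo1, the brightest of them, had log2 fold changes of -0.083 and -0.093. Of 20 further genes of glutathione handling, 13 lay lower and 7 higher (median -0.050), and 1 had an unadjusted p under 0.05, Slc3a2, the heavy chain of the cystine carrier (log2 fold change -0.23). Gdap1, a transferase-like protein of the mitochondrial membrane, had -0.013, and Slc1a1, the neuronal carrier that brings in cysteine and glutamate, had -0.081. For Slc1a1 the study, with its own processing, reported the opposite sign, a moderate increase in Tg mice. It also reported more of that protein in nerve endings of older Tg mice. Why the signs of the messenger differ was not tested. Of 15 methionine sulphoxide reductases and genes of selenoprotein synthesis, 10 lay lower and 5 higher (median -0.036), with 1 unadjusted p under 0.05. That one was Selenop, the secreted selenium carrier, with 10448, 11091 and 11440 on the Tg arrays, against 12208, 14614 and 12855 on the wt arrays. The groups did not overlap, and the log2 fold change was -0.26 ± 0.082 (SE; limma adjusted p = 0.32, 0.0074 before adjustment). Like Selenop, the glutathione peroxidases Gpx4 and Gpx3 contain selenocysteine, and so does Gpx1. Not all selenoproteins lay lower, since Selenok had a log2 fold change of 0.20 (95% interval -0.11 to 0.51). Whether selenoproteins differ as a class was not tested. The small selenoprotein Selenow, the brightest of the list, had a log2 fold change of -0.036.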

How the data were processed

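Hippocampal RNA of 3 Tg and 3 wt mice was measured on 1 array each. The deposited intensities are linear MAS5 signals by the submitters' processing notes, with 1 value for each probeset on each array. For its own lists the study used RMA on the scanned images, then SAM and Cyber-T. Images and detection calls were not analysed here. Of 45101 probesets, 64 controls were set aside and the 31% of the other 45037 with the lowest mean signal were left out (lowest mean kept 54.72), which kept 31075. Of the 45037, 34945 have 1 gene symbol, 932 several and 9160 none. Only the first were used for genes.

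The groups were compared with limma 3.58.1 (R 4.3.3) on log2(signal + 16), using group means, an intensity trend and Benjamini-Hochberg adjustment over all probesets kept. Adding 16 shrinks the differences of dim probesets. The script was tested on simulated data. Summaries used Python 3.11.15 and pandas 2.3.3, figures matplotlib 3.10.9, and promoter windows RefSeq on GRCm38.p6. The number of arrays limits the precision.

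The genes, lists and tests were chosen with earlier results of these data known. By rule, the text names in each role the 2 brightest genes, every gene with an unadjusted p under 0.05, Gstm6 and Prdx4 from the study's list, the 3 largest differences in each direction and the 3 largest spreads, and from other lists the 2 brightest and every gene with an unadjusted p under 0.01. Cat, Sod3, Gss, Gstm7, Txnrd1, Txnip, Txnrd2, Txnrd3, Txnl4a, Txnl4b, Hmox1, Abcc4, Srxn1, Idh1, Slc3a2, Selenok, Prdx1, Ttr and the promoter matches were named after their values were seen.

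The 18 alternatives were other constants (1 and 64), quantile normalization, median centring, no filter, the brightest 50%, no intensity trend, array weights, Cyber-T (window 101, confidence 10), the mean of a gene's probesets, the replicate number as a block, each array left out, and both wt 1 and wt 2 left out, the last chosen after seeing the data.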

Additional observations from a re-analysis of the deposited data

How the results depend on the processing

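No redox gene was called at an adjusted p under 0.05 under any of the 18 alternatives. Over all probesets the count of calls, 0, became 66 with Cyber-T and 0 to 6 on leaving out 1 array. At an unadjusted p under 0.05, 1863 probesets were higher in Tg mice (1231 with median centring, 1123 to 2235 on leaving out 1 array) and 1183 lower (2161 with median centring, 883 to 1382 on leaving out 1 array, 549 without both wt 1 and wt 2). The median of the redox genes, -0.11, was -0.050 with a gene's probesets averaged, -0.18 with median centring and -0.14 to -0.059 on leaving out 1 array. Median centring lowered the median of all genes by 0.066, to -0.097.

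Of the redox genes, 2 were higher at an unadjusted p under 0.05. That count was 1 with the brightest 50% of probesets (beside 2.97% of all genes), with no filter (2.85%) and with no intensity trend (2.42%). It was 0 with median centring (1.59%) and with quantile normalization (2.76%), and 0 to 2 on leaving out 1 array (2.1 to 3.4%). The 4 lower ones became 12 with median centring, where the share of all genes was 9.63%, up from 5%. Their count was 1 with no intensity trend (3.37% of all genes) and 2 with quantile normalization (5.22%). On leaving out 1 array it ran from 2 to 5 (3.5 to 5.97% of all genes). Quantile normalization kept only Gpx3 of the 6 and added Nqo1.

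The replicate numbers did not pair the arrays (correlations of same-numbered Tg and wt arrays -0.017, 0.0077 and 0.033). With the replicate number as a block, 1 probeset was called. At an unadjusted p under 0.05, 1 redox gene was then higher, Gpx8 (beside 2.82% of all genes), while Gsr and Gstm6 were not.

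Single-gene values under the alternatives were taken for the 30 genes named by rule, and 519 of these values kept their sign and 19 did not. Over all 59 redox genes, 41 kept their sign in every fit that left out 1 array. With a gene's probesets averaged, Gclc turned to -0.105, Sod1 to 0.101, Sod2 to 0.0434 and Txn2 to -0.135. With median centring, Glrx2 turned to -0.00998, Hmox2 to -0.0367 and Txn2 to -0.0619. On leaving out 1 array, Gsta3 ran from -0.0281 (without Tg 3) to 0.791, Gstm3 from -0.289 (without wt 3) to 0.806, Hmox2 from -0.00306 (without Tg 2) to 0.0698, and Mgst3 from -0.0741 to 0.0138 (without Tg 2; 0.00258 without wt 2). Txn2 ran from -0.0593 (without wt 2; below 0 also without Tg 1, Tg 2 and wt 3) to 0.0795. Without both wt 1 and wt 2, which leaves 1 wt array so that the error comes from Tg arrays alone, Gsta3 turned to -0.247, Prdx3 to 0.00338 and Txn1 to 0.0226. The cause of these changes was not tested.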
